A study of Mus musculus with 11 samples.

Results

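The airway secretory and mucous cell genes described here are Scgb1a1, Scgb3a1, Scgb3a2, Muc5b, Agr2, Reg3g, Bpifa1, Clca3b, Gp2 and Spdef, 10 of the 19938 genes measured in mouse lung. Each was found under exactly 1 row of the array, so no choice among rows was needed. They were chosen by name with their measured log2 levels on these arrays, across all 4 treatment groups, already known. Their differences between groups are therefore descriptions, and no test of them is offered as evidence. RNA came from lung tissue of 129S1 mice in a study of lung cancer suppression by aspirin and triptolide, a diterpenoid that blocks transcription. The 11 arrays, 1 per sample, comprised 2 from controls titled untreated, 3 from mice given aspirin at 4 mg per kg, 3 from mice given triptolide at 1 mg per kg and 3 from mice given both at those doses. Drugs were gavaged on 5 days a week for 2 months. The treatment protocol lists a PBS group where the titles say untreated, and which of these the controls received is not settled by the labels. Sex, age and collection time are not given, and nothing says that the samples of a group were separate animals, so errors cover the spread between these samples only.

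The conducting airways of the mouse are lined by ciliated cells, which move mucus, and by club cells, which secrete anti-inflammatory and detoxifying proteins into the airway lining. Under allergic or infectious stimuli some secretory cells become mucous cells, a change driven by the transcription factor Spdef. Mucous cells fill with gel-forming mucins, which need disulfide-forming chaperones of the endoplasmic reticulum such as Agr2 to fold. Secretory cells also release antimicrobial proteins, among them the lectin Reg3g and the lipid-binding Bpifa1. In whole lung RNA, fewer cells of a type and less RNA per cell cannot be told apart.

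Values are log2 expression levels as deposited, and a difference of 1 is a 2-fold change. The first combination array stood apart from the rest, at 60.2 on the first principal component of all genes against -15.0 to 6.8 on the others. The arrays also fell into separate ranges of Y-linked expression. The mean log2 level of Kdm5d, Uty and Eif2s3y, genes of the Y chromosome, was 5.81 and 5.94 in control and 5.67 to 6.73 with the combination, but 8.88 to 9.09 with aspirin. Within triptolide it was 6.55 on the first array and 9.36 and 9.08 on the others. Combination and control are thus alike in this respect, whereas combination and aspirin differ in drug and in Y-linked level at once. Lung and airway markers were at high levels on every array: Sftpc, of alveolar type 2 cells, lay between 13.62 and 14.27, and Cyp2f2, of club cells, between 13.55 and 14.05.

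Promoter sequences from RefSeq (GRCm38.p6) were used for 7 of the 10 genes, those of Scgb3a1, Agr2, Reg3g, Bpifa1, Clca3b, Gp2 and Spdef. No entry was found for Scgb1a1 and Muc5b, and Scgb3a2 was left out of the search. The counts of 7 below therefore say nothing about these genes. The 250 bases before the start were searched on both strands for 6 short motifs: CGGAT, a core bound by Spdef, TGTTTAC for Foxa factors, CTCAAG for Nkx2-1, TTCNNNGAA for Stat3, the Stat6 motif, which has 1 more base between the same ends, and ACGTGG for Xbp1. The core CGGAT was found in 3 of the 7 windows, against 13.4% of 32817 such windows. CTCAAG was found in 4 of 7 against 13.3%, TGTTTAC in 1 of 7 against 3.2% and TTCNNNGAA in 1 of 7 against 7.0%. The Stat6 motif and ACGTGG were found in 0 of 7, against 5.9% and 6.9%. The windows that hold CGGAT, picked after the search was seen, are shown because their genes, Clca3b, Gp2 and Scgb3a1, were all higher with the combination without overlap with control. Reg3g and Spdef were also higher without overlap, and their windows hold no CGGAT. Capitals mark every motif match, read 5′ to 3′ on the gene's strand.
Clca3b, chr3:144849303-144849552, minus strand: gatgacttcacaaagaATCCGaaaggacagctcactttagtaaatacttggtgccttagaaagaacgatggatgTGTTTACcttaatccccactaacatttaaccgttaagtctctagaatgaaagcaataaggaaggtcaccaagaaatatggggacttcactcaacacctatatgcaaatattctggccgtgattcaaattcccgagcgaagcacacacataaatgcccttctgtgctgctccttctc
Gp2, chr7:119459273-119459522, minus strand: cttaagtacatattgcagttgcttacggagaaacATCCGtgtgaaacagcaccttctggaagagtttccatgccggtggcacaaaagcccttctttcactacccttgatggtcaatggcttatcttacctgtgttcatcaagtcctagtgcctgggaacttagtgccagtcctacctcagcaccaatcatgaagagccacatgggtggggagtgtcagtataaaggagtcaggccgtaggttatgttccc
Scgb3a1, chr11:49663345-49663594, plus strand: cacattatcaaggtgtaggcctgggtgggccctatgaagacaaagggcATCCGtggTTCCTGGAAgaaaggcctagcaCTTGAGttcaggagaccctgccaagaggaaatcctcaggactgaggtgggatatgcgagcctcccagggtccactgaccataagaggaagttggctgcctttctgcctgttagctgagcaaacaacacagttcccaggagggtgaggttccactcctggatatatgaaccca
The CGGAT core lies in each of them on the opposite strand, as ATCCG, and it starts 234 bases before the start of Clca3b, 216 before Gp2 and 202 before Scgb3a1. TGTTTAC follows in Clca3b at 176 bases. In Scgb3a1 TTCCTGGAA lies at 194 bases and CTTGAG, which is CTCAAG on the opposite strand, at 172. A match says only that these letters are present.

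The 3 secretoglobins, small secreted proteins of the airway lining, differed in pattern. Scgb1a1, the club cell secretory protein, read 13.96 and 13.91 in control, 13.98, 13.95 and 14.06 with aspirin, 14.003, 14.05 and 13.99 with triptolide, and 13.75, 14.05 and 14.08 with the combination. All arrays lay within 0.32 of each other, and the lowest was the first combination array. These levels sit close to the top of the array's scale, where the highest row read 14.56 to 14.69, so the room for a rise was small. Scgb3a2, another secretoglobin of club cells, read 10.74 and 10.98 in control, 10.99, 11.29 and 10.96 with aspirin, 11.22, 10.76 and 11.21 with triptolide, and 10.52, 11.43 and 11.32 with the combination. The combination thus held both the lowest and the highest of the Scgb3a2 levels. Group means were ordered control, triptolide, aspirin and combination, from 10.86 to 11.09, and no neighbours in that order differed beyond their spread.

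Scgb3a1, a secretoglobin of larger airways, ranged far more widely. It read 11.17 and 11.64 in control, 10.01, 12.40 and 9.93 with aspirin, 12.50, 10.66 and 11.90 with triptolide, and 12.83, 13.49 and 12.41 with the combination. Each combination array was above both control arrays and above every aspirin array. The third combination array was nearly level with the second aspirin array, at 12.4052 against 12.403. Mean levels were 10.78 ± 1.40 (SD, n = 3) with aspirin, 11.40 ± 0.33 (SD, n = 2) in control, 11.69 ± 0.94 (SD, n = 3) with triptolide and 12.91 ± 0.55 (SD, n = 3) with the combination. Between the lower 3 of these groups the arrays overlapped.

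Muc5b, the gel-forming mucin needed for mucus clearance, read 9.56 and 10.34 in control, 8.53, 10.22 and 8.58 with aspirin, 11.29, 9.35 and 10.37 with triptolide, and 11.12, 11.84 and 10.98 with the combination. All 3 combination arrays were above all control and aspirin arrays, and the first triptolide array lay among them. Means were 9.11 ± 0.96 (SD, n = 3) with aspirin, 9.95 ± 0.56 (SD, n = 2) in control, 10.34 ± 0.97 (SD, n = 3) with triptolide and 11.32 ± 0.46 (SD, n = 3) with the combination. Agr2, the disulfide isomerase that mucins need to fold, read 7.74 and 7.97 in control, 7.52, 7.71 and 7.41 with aspirin, 8.67, 7.39 and 7.71 with triptolide, and 9.20, 9.92 and 7.93 with the combination. The first and second combination arrays were the highest of all 11, while the third lay between the control arrays. Every aspirin array was below both controls for Agr2.

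**Figure D1:**
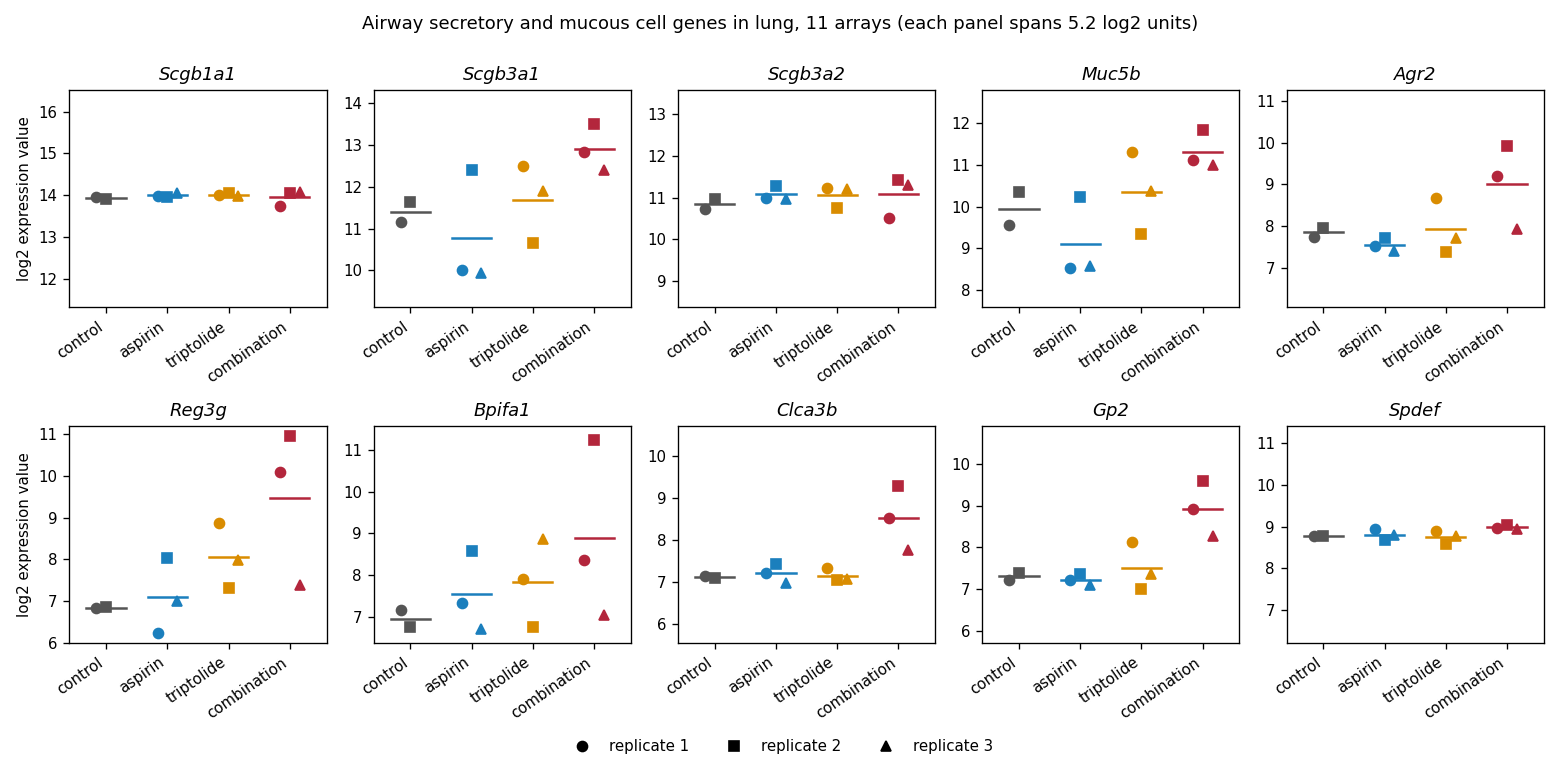
Log2 expression value (vertical axis) of each gene on each of the 11 arrays, by treatment group, with the group mean as a horizontal line and the replicate number as the symbol; every panel spans the same number of log2 units. Scgb1a1 and Spdef vary least, and the second combination array is the highest for every gene but Scgb1a1.

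Reg3g, a lectin that binds the wall of Gram-positive bacteria, had the widest range of the 10, at 4.69. It read 6.83 and 6.86 in control, 6.25, 8.05 and 7.0 with aspirin, 8.86, 7.31 and 7.98 with triptolide, and 10.10, 10.94 and 7.38 with the combination. All triptolide and all combination arrays were above both controls, but the third combination array was close to the lowest triptolide array. Bpifa1, a lipid-binding host defence protein of upper airway secretions, read 7.16 and 6.75 in control, 7.33, 8.59 and 6.72 with aspirin, 7.90, 6.76 and 8.87 with triptolide, and 8.37, 11.23 and 7.04 with the combination. The second combination array was far above the others, and the third was below the first control array. Bpifa1 and Reg3g were also high on the second aspirin array relative to the other aspirin arrays. On that array the mean level of 10 neutrophil genes stood 2.86 above its 11-array mean, against -0.68 to 0.49 elsewhere, and S100a8, a calcium-binding protein of neutrophils, read 12.10. The part of neutrophils in these levels was not tested.

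Clca3b and Gp2 were higher on every combination array than on every array of the other groups. The share of all genes that did so was not computed. It can be no more than the 5.47% that were higher than aspirin alone without overlap. Clca3b, of the calcium-activated chloride channel regulator family, read 7.13 and 7.09 in control, 7.22, 7.43 and 6.97 with aspirin, 7.33, 7.04 and 7.06 with triptolide, and 8.53, 9.29 and 7.75 with the combination. The lowest combination array was above all 8 others. Its paralog Clca3a1 had another profile, at 9.14, 7.36 and 7.24 with the combination and 8.17 on the second aspirin array, and whether the array row of one reads RNA of the other was not tested. Gp2, a membrane glycoprotein of secretory granules that also marks antigen-sampling M cells, read 7.23 and 7.38 in control, 7.22, 7.37 and 7.10 with aspirin, 8.13, 7.01 and 7.36 with triptolide, and 8.93, 9.60 and 8.26 with the combination. Here too every combination array was above all other arrays, with the first triptolide array next. Group means were 7.23 ± 0.14 (SD, n = 3) with aspirin, 7.30 ± 0.11 (SD, n = 2) in control, 7.50 ± 0.57 (SD, n = 3) with triptolide and 8.93 ± 0.67 (SD, n = 3) with the combination for Gp2. A list of 10 other M cell genes had mean levels of 0.05 to 0.17 with the combination and -0.05 to 0.04 in control, as deviations from the 11-array mean. Of these, 6 were above and 4 below control with the combination, with a median of 0.08, from Anxa5 at -0.51 ± 0.18 to Spib at 0.95 ± 0.40. Spib is a transcription factor of M cells and of B cells, and B and plasma cell genes were higher on the same arrays, at 0.43 to 0.84 against -0.45 to -0.38 in control; their part in it was not tested.

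Spdef, the factor that drives mucous cell differentiation, varied little. It read 8.78 and 8.79 in control, 8.95, 8.67 and 8.80 with aspirin, 8.89, 8.59 and 8.78 with triptolide, and 8.98, 9.03 and 8.93 with the combination. The combination arrays were above control and triptolide and overlapped aspirin. Its whole range of 0.44 was a fraction of that of Muc5b, at 3.31.

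The combination was compared with control to ask what both drugs together do to these genes. All 10 were above control on average, with a median difference of 1.39 against 0.01 over all genes. Reg3g differed by 2.63 ± 0.88 (SE), Bpifa1 by 1.93 ± 1.02, Gp2 by 1.63 ± 0.36, Scgb3a1 by 1.51 ± 0.71, Clca3b by 1.42 ± 0.33, Muc5b by 1.37 ± 0.59 and Agr2 by 1.16 ± 0.49. These differences amount to 6.19-fold for Reg3g and 3.09-fold for Gp2. They start from low levels without a detection call. In control, Agr2, Reg3g, Bpifa1, Clca3b and Gp2 read below the median of all genes, which was 8.55 and 8.58 on the control arrays. Scgb3a2 and Spdef differed by 0.23 ± 0.25 and 0.20 ± 0.11, and Scgb1a1 by 0.03 ± 0.11. In 6 of the 10, Scgb3a1, Muc5b, Reg3g, Clca3b, Gp2 and Spdef, all combination arrays were above all control arrays, as were 14.2% of all genes; none of the 10 was lower in that way, against 20.5% of all genes, and 34.8% did not overlap in either direction. The limma fit over all genes called 0 of the 10 and 0% of all genes at an adjusted p under 0.05. At an unadjusted p under 0.05 the same fit gave 5 of the 10 and 2795 of all genes. Without the first combination array all 10 remained above control, with Gp2 at 1.63 ± 0.40 and Reg3g at 2.32 ± 0.95. Without the second one the difference of Bpifa1 was 0.75 ± 0.72 and that of Agr2 0.71 ± 0.44. For Scgb3a1, Muc5b, Agr2, Reg3g, Bpifa1, Clca3b and Gp2 the third combination array was the closest to control. Leaving out that array therefore had to widen their differences. Without it limma called 4 of the 10, Agr2, Reg3g, Clca3b and Gp2, beside 896 of all genes. These calls are no evidence of a difference, since the array stands out by the same values.

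**Figure D2:**
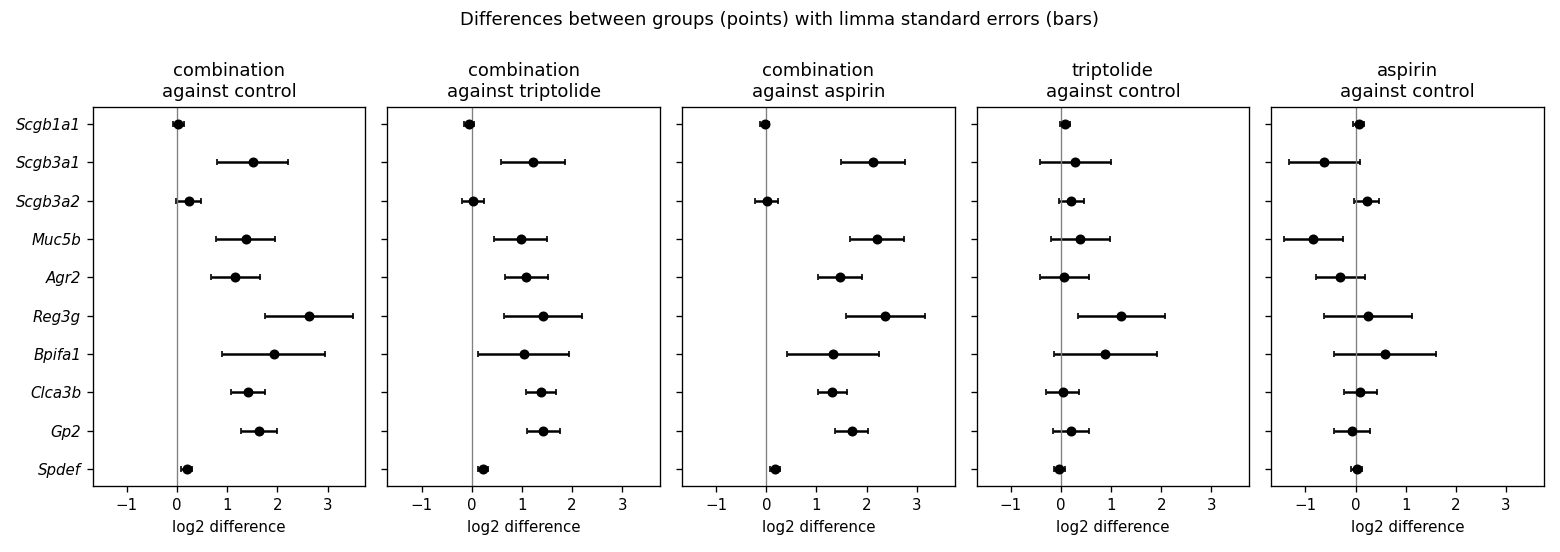
Log2 difference (horizontal axis) of each gene in 5 comparisons, as points with the standard error of the limma fit as bars. Against control, triptolide or aspirin, the combination is higher by over 1 for Scgb3a1, Agr2, Reg3g, Bpifa1, Clca3b and Gp2, and the single drugs lie nearer to 0 for most genes.

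Aspirin added to triptolide was examined by setting the combination against triptolide alone. Clca3b, Gp2 and Spdef were higher on every combination array than on every triptolide array, which held for 8.36% of all genes; 0 of the 10 were lower without overlap, against 9.53%, and 17.9% of all genes did not overlap in either direction. Clca3b differed by 1.38 ± 0.30, Gp2 by 1.43 ± 0.32, Agr2 by 1.09 ± 0.44, Reg3g by 1.42 ± 0.78, Scgb3a1 by 1.22 ± 0.64, Bpifa1 by 1.04 ± 0.91 and Muc5b by 0.98 ± 0.53. Scgb3a2 differed by 0.02 ± 0.22 and Scgb1a1 by -0.05 ± 0.09. Without the second combination array Bpifa1 was at -0.14 ± 0.66, Reg3g at 0.69 ± 0.75 and Agr2 at 0.64 ± 0.40, and without the third Bpifa1 was at 1.96 ± 0.84 and Reg3g at 2.47 ± 0.53. Without the second triptolide array Muc5b was at 0.48 ± 0.52, Scgb3a1 at 0.71 ± 0.66 and Bpifa1 at 0.49 ± 1.01. limma called 0 of the 10 and 0% of all genes, with 4 of the 10 and 2703 of all genes at an unadjusted p under 0.05.

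The first triptolide array, the only one of that group with a low Y-linked level, was the nearest of the group to the combination for Scgb3a1, Muc5b, Agr2, Reg3g, Clca3b and Gp2. For Muc5b that array read 11.29, within the combination's 10.98 to 11.84, and the other triptolide arrays read 9.35 and 10.37. Among arrays of low Y-linked level alone, which leaves that 1 triptolide array, Muc5b differed by 0.02 ± 0.43, Agr2 by 0.34 ± 0.71 and Scgb3a1 by 0.41 ± 0.43. Clca3b and Gp2 differed by 1.20 ± 0.54 and 0.80 ± 0.48. The lone array is assumed there to vary like the other groups. When Y-linked expression entered the fit as a covariate, Muc5b was at -0.21 ± 0.66, Agr2 at -0.11 ± 0.45, Reg3g at -0.09 ± 1.04, Clca3b at 0.88 ± 0.41 and Gp2 at 0.48 ± 0.29. The slope in that fit comes from differences within groups, and these were widest in triptolide, at 6.55 against 9.36 and 9.08. For the combination against control the same fit gave Gp2 at 1.79 ± 0.22, Clca3b at 1.5 ± 0.31 and Muc5b at 1.57 ± 0.50. It called Gp2 alone of the 10, beside 96 of all genes, against 0 of either without the covariate.

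**Figure D3:**
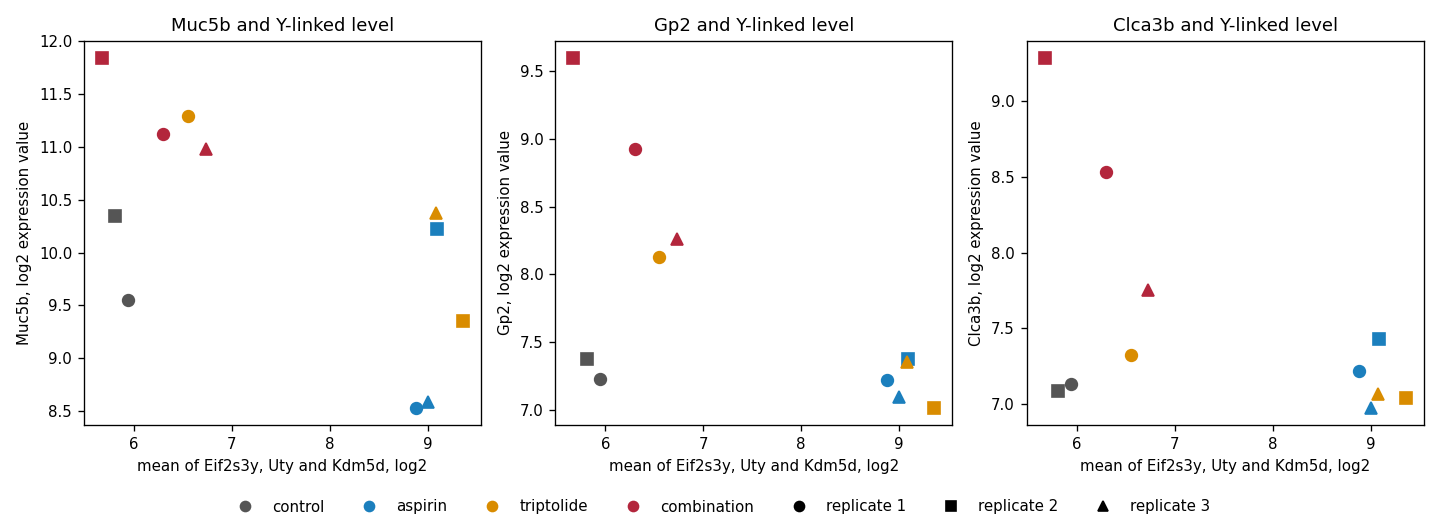
Log2 value of Muc5b, Gp2 and Clca3b (vertical axes) against the mean log2 level of Kdm5d, Uty and Eif2s3y, which lie on the Y chromosome (horizontal axis) on each of the 11 arrays, coloured by group. Control, combination and the first triptolide array lie under 7 on the horizontal axis; among these, control is lowest for all 3 genes, and the first triptolide array is at the combination's level for Muc5b only.

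Triptolide added to aspirin was examined by setting the combination against aspirin alone. Muc5b differed by 2.21 ± 0.53, Scgb3a1 by 2.13 ± 0.64, Agr2 by 1.47 ± 0.44, Gp2 by 1.70 ± 0.32, Clca3b by 1.32 ± 0.30, Reg3g by 2.38 ± 0.78 and Bpifa1 by 1.34 ± 0.91. Muc5b, Scgb3a1, Agr2, Clca3b and Gp2 did not overlap between the groups, 5 of 10 against 5.47% of all genes higher in this way. Scgb3a1 counts among them by a near tie, 12.4052 on the third combination array against 12.403 on the second aspirin array. Of the 10, 0 were lower, against 9.86%, and 15.3% of all genes did not overlap in either direction. Spdef differed by 0.17 ± 0.10, Scgb3a2 by 0.00 ± 0.22 and Scgb1a1 by -0.04 ± 0.09. limma called 0 of the 10 and 0% of all genes, and 6 of the 10 and 2322 of all genes had an unadjusted p under 0.05. Without the third combination array it called Agr2, Reg3g, Clca3b and Gp2, beside 704 of all genes, and Bpifa1 was at 2.25 ± 0.84. That array was the lowest of the combination for these genes, so leaving it out had to widen their differences. These calls are no evidence either. Without the second combination array Bpifa1 was at 0.16 ± 0.66. All aspirin arrays have a high Y-linked level and all combination arrays a low one, so drug and Y-linked level cannot be told apart here. With that level as a covariate the difference was 0.65 ± 0.78 for Muc5b and -0.11 ± 0.53 for Agr2.

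Each drug alone was also compared with control. With triptolide, 9 of the 10 genes were above control, with a median difference of 0.20, and Reg3g differed most, by 1.21 ± 0.88. Reg3g and Scgb1a1 were higher without overlap, 2 of 10 against 9.92% of all genes; 0 were lower, against 13.3%, and 23.2% of all genes did not overlap in either direction. The count above control was 4 without the first triptolide array, where Muc5b was at -0.09 ± 0.57 and Gp2 at -0.12 ± 0.33, and Reg3g at 0.80 ± 0.96. With Y-linked expression as a covariate, triptolide differed from control by 1.78 ± 0.76 for Muc5b and 1.30 ± 0.34 for Gp2, against 0.39 ± 0.59 and 0.20 ± 0.36 without it. The slope on Y-linked level in this fit, and in the covariate fits below, rests mostly on the first triptolide array. With aspirin, 6 genes were above and 4 below control. Muc5b differed by -0.84 ± 0.59, Scgb3a1 by -0.62 ± 0.71, Bpifa1 by 0.59 ± 1.02 and Agr2 by -0.31 ± 0.49. Every aspirin array has a high Y-linked level and both controls a low one, so drug and Y-linked level cannot be told apart here either. With that level as a covariate the signs turned, to 0.92 ± 0.88 for Muc5b, 0.95 ± 1.19 for Scgb3a1, 1.48 ± 0.60 for Agr2 and 1.33 ± 0.39 for Gp2, which was at -0.07 ± 0.36 without it. Single arrays moved these values too: without the second aspirin array Muc5b was at -1.39 ± 0.53, Scgb3a1 at -1.43 ± 0.51 and Bpifa1 at 0.07 ± 1.10. Without the first aspirin array Scgb3a1 was at -0.24 ± 0.77 and Muc5b at -0.55 ± 0.66, and without the third Scgb3a1 was at -0.20 ± 0.75 and Bpifa1 at 1.00 ± 1.13. Without the second control array Muc5b was at -0.44 ± 0.76, Scgb3a1 at -0.39 ± 0.94 and Bpifa1 at 0.39 ± 1.35. Agr2 was lower without overlap, 1 of 10 against 16% of all genes, and 0 were higher without overlap, against 10%, with 26% of all genes not overlapping in either direction. limma called 0 of the 10 and 0% of all genes for either drug, with 0 of the 10 at an unadjusted p under 0.05 and 561 of all genes for triptolide and 609 for aspirin. The interaction, combination minus aspirin minus triptolide plus control, was 1.5 ± 0.48 for Gp2, 1.28 ± 0.44 for Clca3b, 1.82 ± 0.80 for Muc5b, 1.84 ± 0.95 for Scgb3a1 and 0.45 ± 1.37 for Bpifa1. With the Y-linked covariate it was negative for most of them, at -0.85 ± 0.62 for Gp2, -1.13 ± 1.39 for Muc5b, -0.79 ± 1.87 for Scgb3a1 and -2.06 ± 2.88 for Bpifa1, with Clca3b at 0.04 ± 0.86. Without the second combination array that of Bpifa1 was -0.73. limma called the interaction in 0 of the 10 and in 0% of all genes, with 3 of the 10 and 681 of all genes at an unadjusted p under 0.05. These comparisons share their control and single-drug arrays.

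Scgb3a1, Muc5b, Agr2, Reg3g, Bpifa1, Clca3b and Gp2 varied together, a set picked from these same values. Across the 11 arrays the 21 pairs of these 7 genes had Pearson correlations from 0.646 to 0.973 and Spearman correlations from 0.455 to 0.955. After each group's mean was subtracted, Pearson's r was 0.523 to 0.984, and without the first combination array 0.642 to 0.971. Scgb3a1 and Muc5b, 2 products of mucus-secreting cells, correlated at 0.973, and at 0.965 within groups. Agr2 and Gp2 correlated at 0.957, and at 0.984 within groups. Spdef followed some of the 7, with r of 0.766 with Gp2, 0.702 with Agr2 and 0.695 with Clca3b, but 0.548, 0.495 and 0.257 within groups. Scgb3a2 had r of 0.183 to 0.488 with the 7, and 0.635 to 0.789 without the first combination array. Scgb1a1 had r of -0.263 to -0.031 with them, and 0.035 to 0.386 without that array. These are descriptions over arrays that share treatment groups, with no p, since the genes were chosen with their values known.

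**Figure D4:**
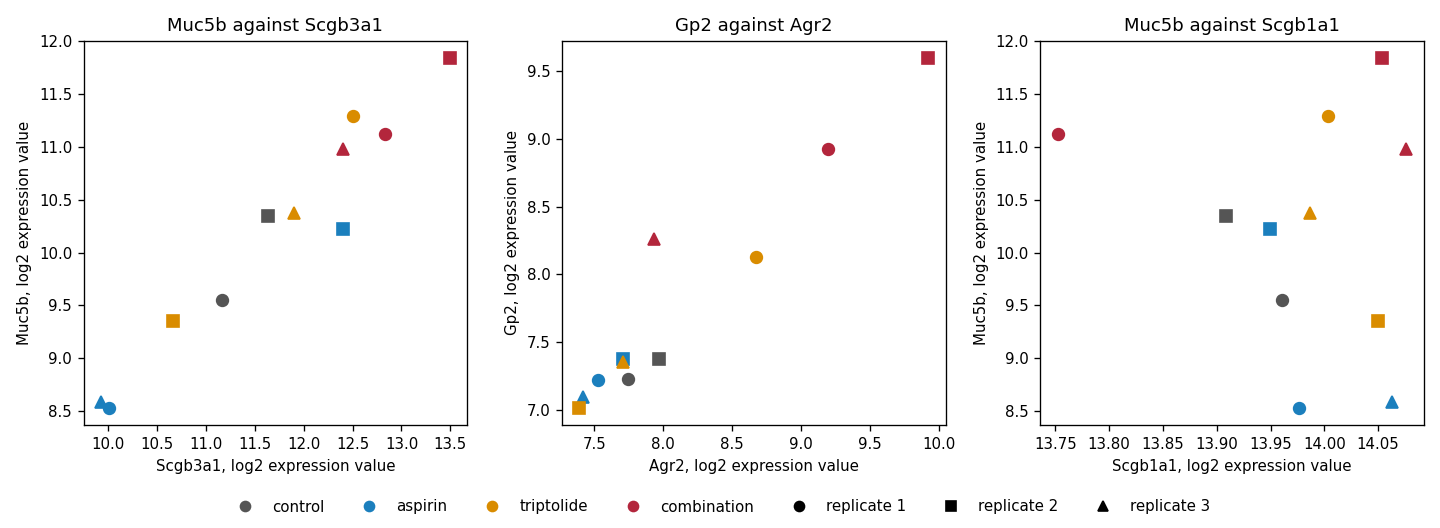
Log2 values of 3 pairs of genes on the 11 arrays, coloured by group. Muc5b rises with Scgb3a1 along 1 line through all groups (r = 0.973) and Gp2 with Agr2 (r = 0.957), whereas Scgb1a1 spans only 0.32 and shows no such line with Muc5b.

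Among all other named genes, the pattern over the 11 arrays most like that of Muc5b was that of Bpifb1, a secreted protein of the same family as Bpifa1, at a Pearson correlation of 0.96 and a Spearman correlation of 0.982. Bpifb1 kept an r of 0.938 without the 2 arrays farthest from the median of Muc5b, the first and the third aspirin arrays. Nudc (0.951), Rgs13 (0.946), Mtmr4 (0.935) and Sdf2l1 (0.935), a chaperone of the endoplasmic reticulum, came next by Pearson's r. Nearest to Reg3g were Apobec1 (0.938), Vav1 (0.93), Phtf2 (0.926), Cd80 (0.92) and Arhgap15 (0.919), of which Vav1 and Cd80 are genes of immune cells. Phtf2 fell to 0.683 without the first and second combination arrays. Nearest to Scgb1a1 were Diaph2, Ptpn13, Fam120b, Zfp354b and Ppp2r2b, at Pearson correlations of 0.906 to 0.933. Without the first and the third combination arrays these ran from 0.677 to 0.846.

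Genes of airway cells outside the 10 were examined from lists written from general knowledge, but with earlier results of these data known. Goblet and mucous cell genes were above control with the combination in 15 of 19 measured, with a median difference of 0.21 against 0.01 over all genes, and limma called 0 of them higher and 0 lower. With triptolide alone 14 of the 19 were above control (median 0.13) and with aspirin alone 10 (median 0.01). Clca1, a secreted protein abundant in goblet cells, read 8.33 and 9.35 in control and 12.35, 13.06 and 8.68 with the combination, with 11.80 on the first triptolide array. Its difference from control was 2.52 ± 1.29. Bpifb1 read 9.47 and 9.77 in control and 11.53, 12.42 and 10.75 with the combination, a difference of 1.95 ± 0.75 with no overlap. Muc5ac, the other gel-forming airway mucin, read 7.98 and 8.2 in control and 8.68, 9.20 and 8.31 with the combination. Creb3l1 and Muc1 were the lowest of the list, at -0.42 ± 0.20 and -0.21 ± 0.22. Neither passed, nor did Clca1 or Bpifb1.

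Club cell genes were above control with the combination in 7 of 19 measured, with a median of -0.03. Cyp2f2, a P450 of club cells, differed by -0.02 ± 0.13. Tff2, a trefoil factor of mucus, and Lypd2 differed by 0.93 ± 0.29 and 0.57 ± 0.21, and Scnn1b, a sodium channel subunit, and Ces1f by -0.54 ± 0.23 and -0.32 ± 0.18. Ciliated cell genes were above control in 14 of 15 with a median of 0.37, among them the dynein Dnah5 at 0.65 ± 0.27, Tmem212 at 0.61 ± 0.20 and Foxj1, the factor of ciliogenesis, at 0.44 ± 0.18, with Tppp3 alone below, at -0.10 ± 0.21. Their mean level was -0.29 on the first combination array and 0.43 and 0.36 on the others, against -0.37 and -0.01 in control. The single drugs shared this direction. Ciliated cell genes were above control in 14 of 15 with triptolide alone (median 0.19) and in 13 of 15 with aspirin alone (median 0.17). Basal cell genes were above control in 7 of 10 with a median of 0.09, including Trp63, the basal cell factor, at 0.25 ± 0.12, Aqp3 at 0.19 ± 0.12 Snai2 at -0.39 ± 0.21 and Dapl1 at -0.18 ± 0.18. limma called 0 genes of these 3 lists in either direction.

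Genes of other cell types differed in level as well. All 9 measured B and plasma cell genes were above control with a median of 1.02, and their mean level was 0.43 to 0.84 with the combination, 0.46 on the first triptolide array and -0.75 to -0.15 on all others. Jchain, which joins secreted antibodies, differed by 1.32 ± 0.37. With triptolide alone 9 of the 9 were above control (median 0.40) and with aspirin alone 6 (median 0.04). All 10 alveolar type 1 genes were below control with a median of -0.62, among them Ager at -0.58 ± 0.19. All 12 alveolar type 2 genes were below control too, with a median of -0.46 and Sftpc at -0.14 ± 0.13. Airway cartilage genes, which would come with larger airways, were above control in 9 of 10 with a median of 0.07, and Col2a1, cartilage collagen, differed by 0.04 ± 0.13. Most of these genes read below the median of all genes. Cytl1, the highest of the list, was the 1 below control, at means of 10.22 in control and 9.72 with the combination. Squamous epithelial genes lay above control in 5 of 9 with a median of 0.00, and Krt13 averaged 7.52 in control and 7.49 with the combination. T cell genes were above in 8 of 8 with a median of 0.22 and Cd3e at 0.21 ± 0.14. Neutrophil genes were above in 7 of 10 (median 0.18, S100a8 at 0.40 ± 1.03), neuroendocrine genes in 8 of 8 (0.06) and tuft cell and ionocyte genes in 7 of 10 (0.07, Pou2f3 at 0.04). On the first combination array alone, 9 cell cycle genes stood at 2.87 and 5 erythroid genes at 3.28, against -0.41 to -0.05 and -0.72 to -0.46 on the other combination arrays. Over the group, 9 of 9 cell cycle genes were above control, with a median of 1.10 and Mki67 at 1.45 ± 0.96, and 4 of 5 erythroid genes, with a median of 1.30. limma called 0 genes of these lists, and the part of these cells in the levels of the 10 genes was not tested.

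**Figure D5:**
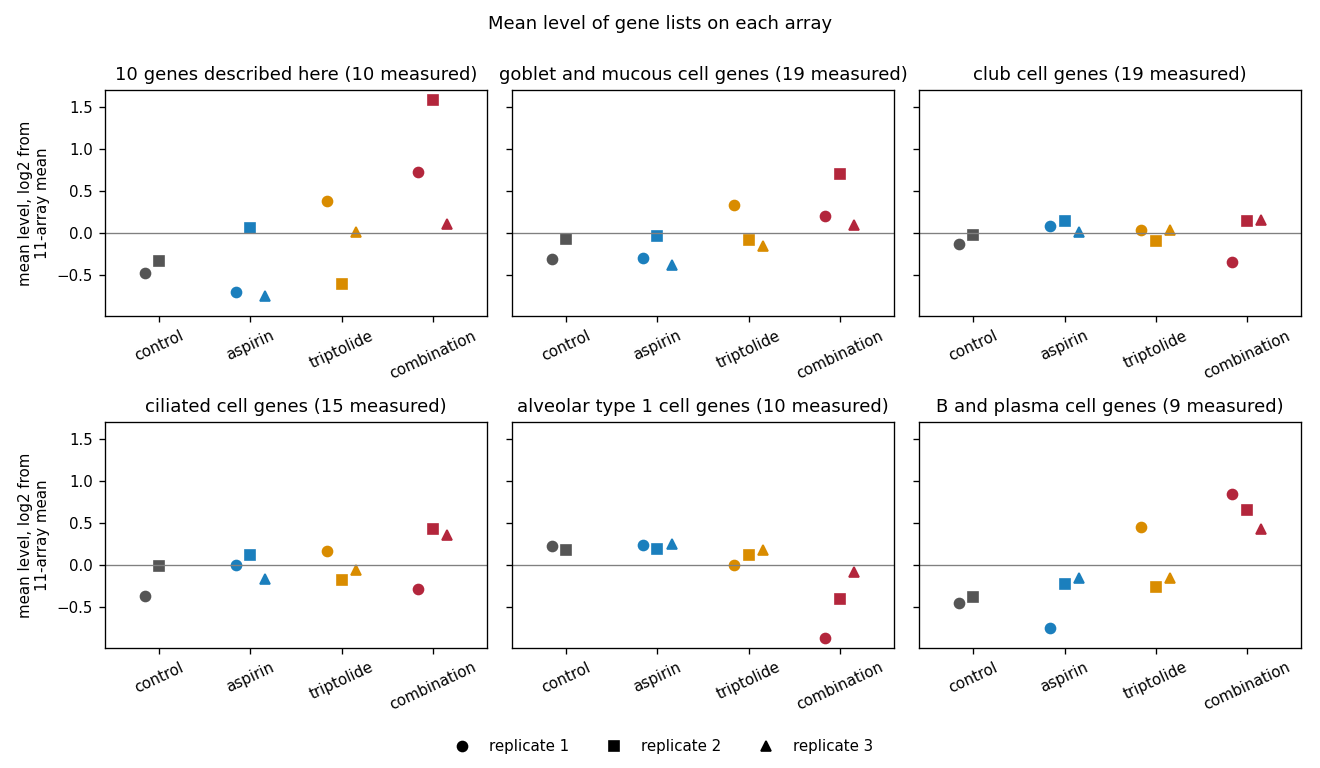
Mean level on each array of the 10 genes and of 5 gene lists, as the log2 deviation from the 11-array mean (vertical axis), by group, with the replicate number as the symbol. The 10 genes and the goblet and mucous list are highest on the second combination array, the club cell list is lowest on the first combination array, and the B and plasma cell list is highest on the combination arrays and the first triptolide array.

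Pathways that act on secretory cells were described from lists of the same kind, for the combination against control, and limma called 0 of their genes in either direction. Relatives of the members in the secretoglobin, BPI fold, Clca and Reg families were above control in 20 of 29 with a median of 0.13; the highest were again Clca1 and Bpifb1, and the lowest Scgb1c1 at -0.66 ± 0.29 and Bpifb5 at -0.47 ± 0.12. Genes of mucin folding and glycosylation were split, 17 above and 15 below with a median of 0.02. St6galnac1, which adds sialic acid to mucin sugars, differed by 0.42 ± 0.22, Gcnt1, which branches them, by 0.29 ± 0.19, and C1galt1c1, the chaperone of the enzyme that extends them, by -0.46 ± 0.14, with Creb3l1 next at -0.42 ± 0.20. Regulators of secretory cells were above control in 8 of 23 with a median of -0.12. Cebpd, an acute phase transcription factor, differed by 0.68 ± 0.20 and Sox2, an airway progenitor factor, by 0.30 ± 0.23, whereas Hey1, a Notch target, differed by -0.67 ± 0.18 and Elf5 by -0.48 ± 0.27.

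Interleukin 13 drives mucous change in allergic airways, and interleukins 17 and 22 induce Reg3g. Genes of interleukin 4 and 13 signalling were 12 above and 12 below control with a median of 0.03. Clca1, also an interleukin 13 target, had the largest difference of the list, 2.52 ± 1.29. Ccl11, which attracts eosinophils, differed by 0.78 ± 0.24, Postn by -0.82 ± 0.21 and the zinc transporter Slc39a8 by -0.46 ± 0.14, and Il13 itself by 0.11 ± 0.16. Genes of interleukin 17 and 22 signalling were above control in 19 of 28 with a median of 0.12. Pglyrp1, which binds bacterial peptidoglycan, differed by 0.89 ± 0.36, Pigr, which carries antibodies across the epithelium, by 0.89 ± 0.44, Il10rb, a receptor chain for interleukin 22, by -0.27 ± 0.17, and the chemokine Cxcl5 by -0.19 ± 0.20. Il17a differed by 0.05 ± 0.14. Both Il13 and Il17a read below the median of all genes on every array, and the values carry no detection call.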

How the data were processed

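Log2 expression values of 11 lung RNA samples were used as deposited, over 35556 rows. The submitters' processing notes name RMA and Partek without saying what each did. The settings and build were not stated. The values carry no detection call, and 11 arrays limit the precision. Rows with exactly 1 symbol in GEO's platform annotation (21789) were kept, and the row with the highest mean stood for each of 19938 genes. Gene lists were matched by symbol or synonym for 293 of 313 symbols. One linear model over all arrays and groups (limma 3.58.1, R 4.3.3) gave the differences, with Benjamini-Hochberg adjustment over all genes and a threshold of 0.05. In simulated data this fit was checked for recovery of known changes. The members and lists were chosen with earlier results of these data known. Named genes were the members, the 2 largest differences in each direction of each pathway and airway list, and the 5 genes most like Scgb1a1, Muc5b and Reg3g. Each other list's first gene was named where it was measured, which those of the neuroendocrine and erythroid lists were not. Genes named beside these were chosen after their values were seen. Alternatives were other scalings, weights, filters, covariates and left-out arrays; the gene-by-gene method was used for array weights.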

Additional observations from a re-analysis of the deposited data

How the results depend on the processing

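For the combination against control, 9 of the 10 genes kept their direction under every alternative run, and Scgb1a1 changed sign in 6 of 21. Fewer kept it elsewhere: 6 against aspirin, 4 against triptolide, 4 for triptolide, 2 for the interaction and 1 for aspirin. Some alternatives cannot move a difference, such as a gene filter, other moderation or leaving out an array of a group not compared. These count among the alternatives all the same. For the combination against control limma called 0 of all genes in the main fit. It called 152 with the replicate block, 2 after quantile normalization, 335 with arrays centred on their medians and 1704 with array weights. It called 96 with the Y-linked covariate, 66 among genes at or above the 25th percentile of the mean and 56 with trend and robust moderation. With 1 array left out it called 0 to 896. Of the 10, the replicate block called 1 (Clca3b), the Y-linked covariate 1 (Gp2), array weights 3, and leaving out 1 array 0 to 4. For the combination against aspirin the counts over all genes were 2 after quantile normalization, 873 with array weights, 1 with the 25th percentile filter, 1 with trend and robust moderation, 2 with the compared groups only and 0 to 704 with 1 array left out; of the 10, weights called 6 and left-out arrays 0 to 4. Array weights called 1 gene against triptolide, 10 for triptolide, 535 for aspirin and 16 for the interaction; the compared groups alone gave 4 for aspirin. With 1 array left out, the counts were 0 to 24 against triptolide (0 to 1 of the 10), 0 to 3 for triptolide, 0 to 4 for aspirin and 0 to 6 for the interaction. After quantile normalization, 1 of the 10 was higher than control without overlap with triptolide and 1 with aspirin. With 1 array left out, genes above numbered 4 to 10 for triptolide, and those higher without overlap 2 to 6 for triptolide, 0 to 3 for aspirin and 3 to 6 against triptolide. Same-numbered arrays of different groups correlated at -0.139 to 0.329 in their deviations from group means, over 0.1 in 6 of 15 pairs. Differently numbered pairs were not computed, so this cannot decide whether the numbers pair the samples. Low Y-linked arrays alone and the overlap counts under other settings were added after the data were seen. The causes of these changes were not tested.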

Other observations

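Clca1 had the widest spread of the goblet cell genes named, from 7.41 on the first aspirin array to 13.06 on the second combination array. It read 11.80 on the first triptolide array and 9.13 and 7.47 on the others, and 8.68 on the third combination array, below the second control array at 9.35. Ltf, lactoferrin, an iron-binding antimicrobial protein of airway secretions and neutrophil granules, read 7.65 and 8.06 in control, 9.85, 10.38 and 8.51 with the combination, and 9.73 on the second aspirin array. Dmbt1, a mucosal scavenger receptor, read 6.74 and 6.81 in control and 7.66, 8.48 and 7.18 with the combination, above all aspirin arrays, and overlapped triptolide only through that group's first array at 7.19. Spib, a transcription factor of M cells and B cells, read 8.60 and 8.50 in control, 10.29, 9.43 and 8.78 with the combination and 9.40 on the first triptolide array.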
